A study of Homo sapiens with 2 samples.

Results

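The genes described here are the amino acid transporters of the solute carrier families SLC1, SLC3, SLC6, SLC7, SLC36, SLC38 and SLC43, chosen by symbol. Of the 17249 rows of the count table, 39 matched, after the cystine importer SLC7A11 and the heavy chain SLC3A2 were left out. None of the 39 belongs to SLC3. The data were RNA sequencing counts from 2 libraries, 1 per group, and the labels give DU145 for each, a line of human prostate cancer cells with epithelial character that was established from a metastasis in the brain. The si-P53RRA library came from cells that, by their label, were given 200 pmol of a small interfering RNA against P53RRA. This long noncoding RNA is the product of LINC00472. The cells received fresh medium after 4 h and were cultured for another 48 h. The control library is labelled with the cell line alone, while the name of its column refers to a negative-control RNA, and what these cells received is not stated further. With 1 library per group there was no test between the conditions, no difference has a replicate check, and every interval below covers counting error only.

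Amino acids are too polar to cross membranes unaided. Cells therefore use carriers that differ in what they take (large neutral, cationic, acidic or small amino acids), in what drives them (sodium, protons or the exit of another amino acid) and in where they sit (the cell surface or the lysosome). In proliferating cells the glutamine carried in by SLC1A5 and the SLC38 family, and the leucine carried in by SLC7A5, feed protein synthesis and the growth-controlling kinase complex mTORC1. Several SLC7 carriers work only as light chains joined to the heavy chain SLC3A2. The SLC6 family also holds carriers of monoamines, taurine and creatine, and SLC43A3 carries nucleobases, so the symbol rule takes in some genes whose main cargo is not an amino acid used in proteins.

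The libraries stood far apart and their marker genes differed, which bears on all values below. The si-P53RRA library held 11942362 counts and the control library 16030207. The targeted RNA, LINC00472, had 6 counts in the si-P53RRA library and 105 in the control library, 11.9-fold lower (5.29 to 33.2). All 8 listed genes of fibroblast and mesenchymal cells were at least 2-fold lower, with summed levels of 217 CPM (counts per 1000000 counts of the scaled library) in the si-P53RRA library and 9319 CPM in the control library, and THY1 and DCN were at 0 counts in the si-P53RRA library. All 6 epithelial markers that reached 1 CPM were at least 2-fold higher, the summed level of the 8 listed being 1998 CPM against 392 CPM. EPCAM had 0 counts in the control library, although DU145 is an epithelial line, and CDH1 had 7 counts in the si-P53RRA library and 2 in the control library. HOXB13, a gene of the prostate lineage, had 10004 counts in the si-P53RRA library and 0 in the control library. These markers moved with the groups, their part in the results below was not tested, and the transfection and the cell population cannot be told apart. In such bulk samples, fewer cells of a type and less RNA per cell cannot be told apart either.

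Of the 39 transporter genes, 27 reached 1 CPM in either library, and 11 of these differed by at least 2-fold, 5 of them upwards and 6 downwards in the si-P53RRA library. The 5 were the large neutral amino acid exchangers SLC7A8 and SLC7A5, the glutamate carrier SLC1A1, the creatine carrier SLC6A8 and the arginine carrier SLC7A2. The 6 were the nucleobase carrier SLC43A3, the neutral amino acid carriers SLC6A15, SLC38A2 and SLC38A4, the glutamine carrier SLC38A5 and the glutamate carrier SLC1A3. Over all 13532 genes at this level, 19.7% were higher by that much and 23.2% lower, so the shares of 18.5% and 22.2% among the transporters lay near those of all genes and are not a result about the transporters. The median log2 change, computed on log2(CPM + 0.5) as the difference between the si-P53RRA library and the control library, was -0.06 for the 27 transporters, with 13 above 0 and 14 below, and -0.06 for all genes tested. The other solute carrier families, with 169 genes tested, counted 47 genes higher and 33 lower, and their median was 0.26. The other 16 transporters at this level lay within 2-fold, and the 12 that did not reach it had at most 3 counts in the si-P53RRA library and 9 in the control library. The transporters are therefore described one by one, by the role of the carrier. Folds are ratios of CPM with an exact 95% counting interval in parentheses, and a fold against 0 counts is a bound set by 3 counts in that library.

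**Figure D1:**
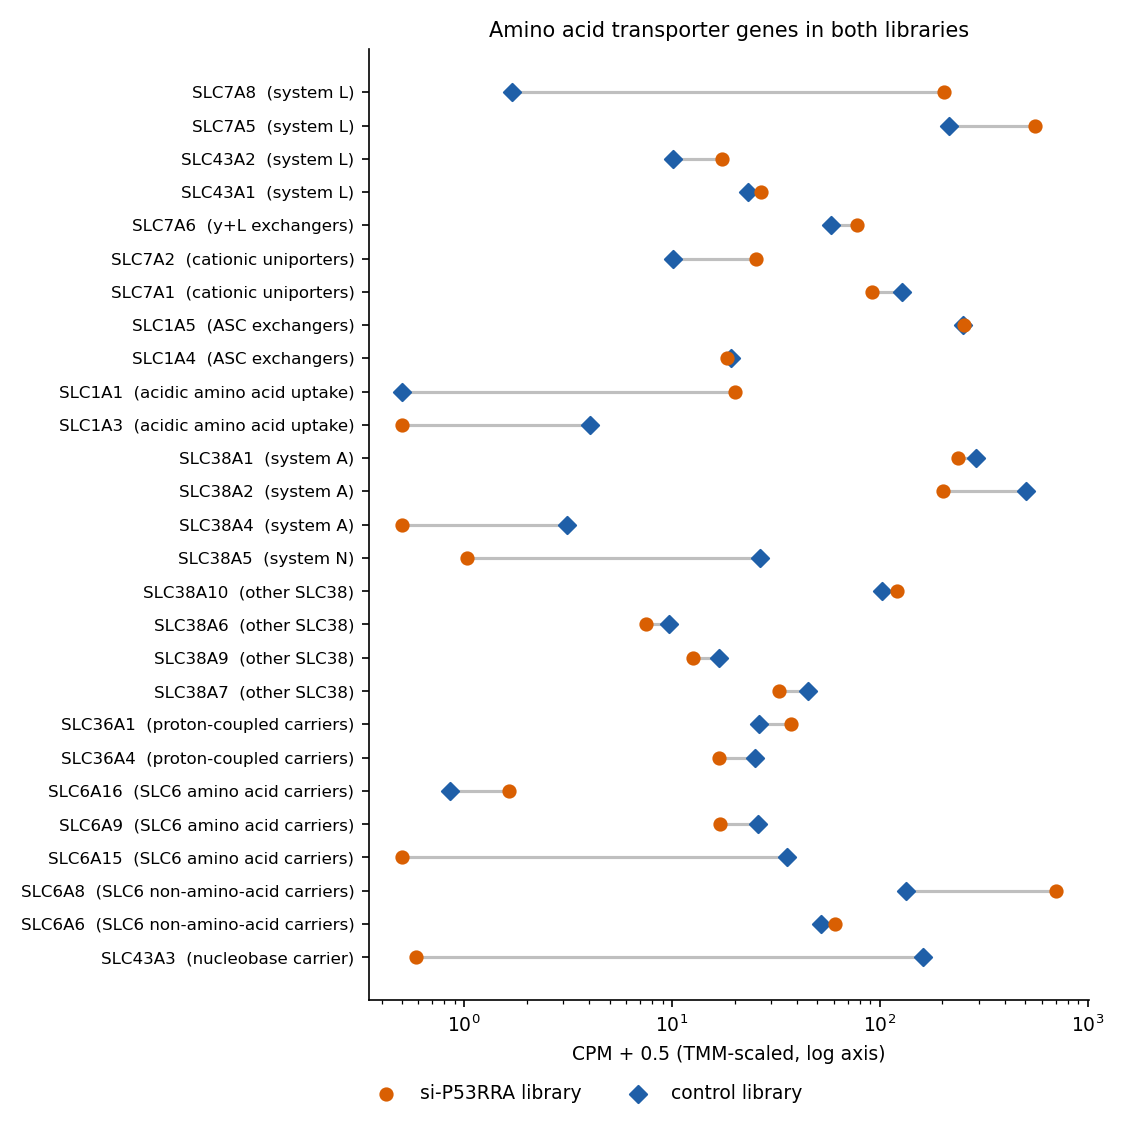
Level of each of the 27 transporter genes that reached 1 CPM, as CPM + 0.5 on a log axis; circles are the si-P53RRA library and diamonds the control library, 1 library each, grouped by role. SLC7A8 and SLC1A1 lie far to the right in the si-P53RRA library, SLC43A3, SLC6A15 and SLC38A5 far to the right in the control library, and the symbols of SLC1A5 nearly coincide.

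Promoters of 4 transporters are shown because they stand for the main patterns: a gene with reads in the si-P53RRA library alone (SLC1A1), an abundant gene that was higher (SLC7A5), an abundant gene that was lower (SLC38A2) and a gene nearly at 0 in the si-P53RRA library (SLC38A5). Each line gives the 250 bases before the annotated start, 5′ to 3′ on the strand of the gene, from RefSeq on GRCh38.p14, in which 31 of the 39 transporters had an entry. The windows are chr9:4490218-4490467 on the plus strand for SLC1A1, and on the minus strand chr16:87869508-87869757 for SLC7A5, chr12:46372774-46373023 for SLC38A2 and chrX:48470261-48470510 for SLC38A5. Capitals mark matches to any of 3 motifs searched on both strands: TGATGNAA, the core of C/EBP-ATF elements of the amino acid response, TGANTCA, bound by AP-1, and CACGTG, the E-box bound by MYC and its relatives.
SLC1A1: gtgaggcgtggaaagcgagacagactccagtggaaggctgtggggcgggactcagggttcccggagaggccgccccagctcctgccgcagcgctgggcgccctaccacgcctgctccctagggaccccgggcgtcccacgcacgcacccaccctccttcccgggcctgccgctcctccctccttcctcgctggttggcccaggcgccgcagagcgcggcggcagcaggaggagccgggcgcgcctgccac
SLC7A5: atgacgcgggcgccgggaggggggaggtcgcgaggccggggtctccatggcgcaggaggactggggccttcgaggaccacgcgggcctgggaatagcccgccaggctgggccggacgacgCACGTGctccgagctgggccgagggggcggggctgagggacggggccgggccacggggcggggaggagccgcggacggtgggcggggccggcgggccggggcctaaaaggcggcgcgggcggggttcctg
SLC38A2: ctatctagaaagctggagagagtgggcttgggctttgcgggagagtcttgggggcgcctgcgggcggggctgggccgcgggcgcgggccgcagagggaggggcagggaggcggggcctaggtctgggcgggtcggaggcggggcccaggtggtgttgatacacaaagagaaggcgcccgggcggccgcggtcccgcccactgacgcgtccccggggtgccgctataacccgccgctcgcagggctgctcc
SLC38A5: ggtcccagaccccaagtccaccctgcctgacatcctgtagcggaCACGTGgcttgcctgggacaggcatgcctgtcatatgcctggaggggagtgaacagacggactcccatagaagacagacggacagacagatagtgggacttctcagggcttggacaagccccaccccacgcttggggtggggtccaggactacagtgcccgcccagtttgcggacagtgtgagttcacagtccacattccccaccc

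In these windows CACGTG was found once in SLC7A5, 130 bases before the start, and once in SLC38A5, 206 bases before it, that is, in one gene that was higher and one that was lower. The window of SLC1A1 and that of SLC38A2 hold none of the 3 motifs. Bases outside the windows, introns included, were not searched, so elements elsewhere in these genes would not be seen. GC content was 74.4% for SLC1A1, 79.6% for SLC7A5, 73.6% for SLC38A2 and 60.8% for SLC38A5, against a median of 58% over all 35116 windows. The number of CpG dinucleotides was 24 for SLC1A1, 34 for SLC7A5, 26 for SLC38A2 and 7 for SLC38A5, against a median of 11. Over the 50 windows used for the 31 transporters, of which several belong to alternative starts of one gene, TGATGNAA was present in 2, TGANTCA in 8 and CACGTG in 8. Over all 35116 windows, with no chromosome left out, the counts were 1104, 2308 and 2228, or 3.14%, 6.57% and 6.34%. Whether the transporters differ from all windows in these shares was not tested. A match is a string of letters and not a shown binding site.

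The system L carriers, which move leucine and other large neutral amino acids, were higher as a summed level. SLC7A8, the exchanger LAT2 that is best known from the basolateral face of kidney and gut epithelium, had 2308 counts in the si-P53RRA library and 20 in the control library. It was 170-fold higher (110 to 278), at levels of 202 CPM and 1.19 CPM. SLC7A5, the exchanger LAT1 that is common in growing and cancer cells, had 6332 counts against 3616 and was 2.58-fold higher (2.47 to 2.68). Its reads may be shared with the near-identical pseudogenes SLC7A5P1, with 4 and 16 counts, and SLC7A5P2, with 12 and 43, which hold few counts beside it. SLC43A2, the uniporter LAT4, had 193 counts against 161 and was 1.76-fold higher (1.42 to 2.19), inside the 2-fold limit. SLC43A1, the related LAT3 first described in liver and prostate cancer, had 299 counts against 379 at a ratio of 1.16 (0.994 to 1.35), an interval that includes 1. Per kilobase of the longest transcript, the scale on which levels of different genes can be compared, the 4 genes summed to 182 CPM per kb in the si-P53RRA library and 57.7 CPM per kb in the control library. SLC7A8 made up 26.3% of that sum in the si-P53RRA library and 0.490% in the control library, and SLC7A5 67.0% and 82.4%.

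The y+L exchangers swap a cationic amino acid for a neutral one with sodium. SLC7A6, the widespread member, had 879 counts in the si-P53RRA library and 971 in the control library, a ratio of 1.33 (1.21 to 1.46). It overlaps the gene SLC7A6OS, which had 153 and 119 counts and was 1.89-fold higher (1.48 to 2.42), and no source used here says whether the libraries kept the strand, so their reads cannot be told apart where they overlap. SLC7A7, the epithelial and leukocyte member, had 1 count against 4 and was not measurable at this depth. The heavy chain SLC3A2, which brings these light chains and SLC7A5 and SLC7A8 to the surface, had 4166 counts against 5014 and was 1.22-fold higher (1.17 to 1.27). SLC7A11, the light chain that imports cystine, had 323 counts against 728 and was 1.53-fold lower (1.34 to 1.75). Summed per kilobase, the light chains SLC7A5, SLC7A6, SLC7A7, SLC7A8 and SLC7A11 stood at 185 CPM per kb in the si-P53RRA library and 61.5 CPM per kb in the control library. The ratio of that sum to SLC3A2 was 1.13 and 0.458. These are levels of RNA and say nothing of how many pairs of protein chains were made.

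The cationic amino acid uniporters bring arginine and lysine into the cell. SLC7A1, the widespread member, had 1040 counts in the si-P53RRA library and 2146 in the control library and was 1.40-fold lower (1.30 to 1.51), inside the 2-fold limit. SLC7A2, which is known from liver and from macrophages, had 282 counts against 161 and was 2.58-fold higher (2.12 to 3.15). The pair thus differed in opposite directions, and SLC7A2 made up 20.6% of the summed level of this group per kilobase in the si-P53RRA library and 6.70% in the control library. SLC7A4, a relative with no settled cargo, had 1 and 3 counts.

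**Figure D2:**
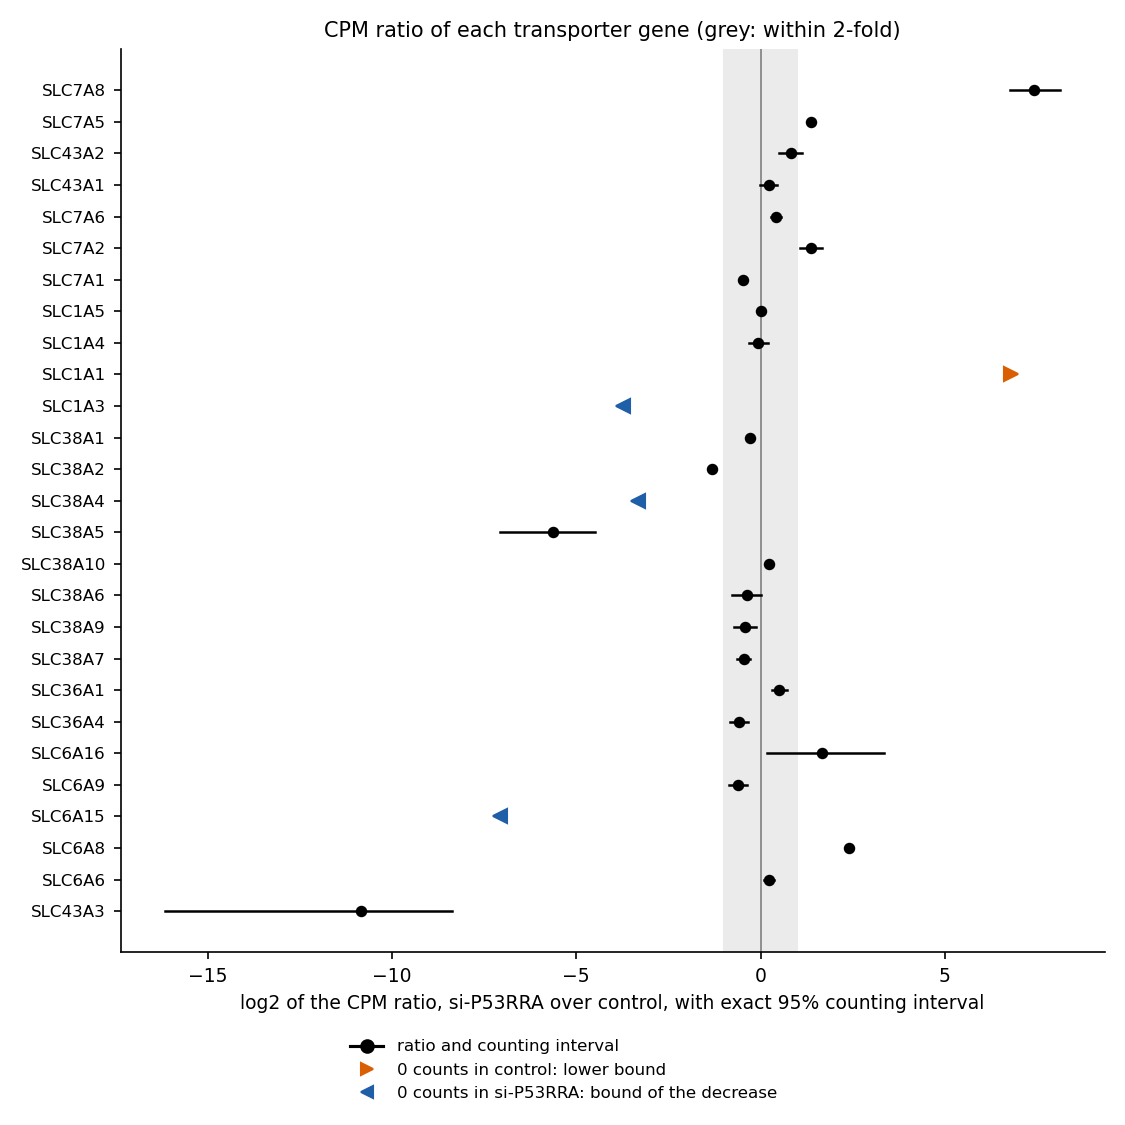
Ratio of CPM between the si-P53RRA and control libraries for the same 27 genes on a log2 axis, with exact 95% counting intervals as lines; triangles are bounds where a library had 0 counts, and the grey band is within 2-fold. SLC7A8, SLC1A1, SLC6A8, SLC7A5 and SLC7A2 lie right of the band and SLC43A3, SLC6A15, SLC38A5, SLC1A3, SLC38A4 and SLC38A2 left of it; SLC6A16 has a point outside the band but was within 2-fold on the scale with a pseudocount.

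Among the SLC1 genes, the glutamate carriers with the most reads differed between the libraries, while the neutral exchangers had nearly the same level. SLC1A1, the sodium-driven glutamate and aspartate carrier EAAT3 of neurons, kidney and gut, had 224 counts in the si-P53RRA library (19.6 CPM) and 0 in the control library, at least 110-fold higher. SLC1A3, the carrier EAAT1 of the same substrates that is best known from astrocytes, had 0 counts against 59 (3.52 CPM) and was at least 13.4-fold lower. SLC1A2, the main carrier of astrocytes, had 0 and 6 counts. Each library thus had reads of 1 main glutamate carrier, and the level of SLC1A1 in the si-P53RRA library, 5.28 CPM per kb, was above that of SLC1A3 in the control library, 0.843 CPM per kb. Genes at 0 counts in 1 library were not rare: among all genes tested, 4.6% were at 0 in the si-P53RRA library and 2.17% in the control library, and among the 27 transporters 3 and 1.

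SLC1A5, the exchanger ASCT2 that is a main route of glutamine into many cancer cells, had 2895 counts in the si-P53RRA library and 4217 in the control library. After scaling to library size these were 254 CPM and 251 CPM, a ratio of 1.01 (0.963 to 1.06). Its relative SLC1A4, which exchanges alanine, serine and cysteine, had 204 counts against 313, or 17.9 CPM against 18.7 CPM. The sign of the small difference of each gene turned with the setting, as it did for 7 of the 27 transporters: over all settings the log2 change ran between -0.32 and 0.03 for SLC1A5 and between -0.19 and 0.07 for SLC1A4.

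The SLC38 family, which carries glutamine and other small neutral amino acids, held 3 of the 6 genes that were at least 2-fold lower and none that was at least 2-fold higher, among 8 of its 11 members that reached 1 CPM. Over all genes 23.2% were lower and 19.7% higher by that much, and with 8 genes nothing particular to the family is read from its count. Its median log2 change was -0.43. SLC38A2, the system A carrier SNAT2 that cells are known to induce when amino acids are scarce, had 2288 counts in the si-P53RRA library and 8418 in the control library and was 2.501-fold lower (2.39 to 2.62). Its transcript has a GC content of 38.1%, and when corrected for the GC content and length of transcripts its log2 change was -0.82, inside the 2-fold limit, against -1.32 before. SLC38A4, the liver and placenta member of system A, had 0 counts against 44 and was at least 9.97-fold lower. SLC38A1, the system A carrier SNAT1, had 2700 counts against 4840 at a ratio corresponding to 1.22-fold lower (1.16 to 1.28), and its sign turned with the correction, to a log2 change of 0.09. In the RefSeq gene order of GRCh38.p14 these 3 genes follow one another on chromosome 12 with no other gene of the count table between them. The gene before them, SCAF11, had 522 counts against 1357 and was 1.77-fold lower, and the gene after them, AMIGO2, had 168 against 513 and was 2.08-fold lower.

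Of the system N carriers, which can also release glutamine, SLC38A5 had 6 counts in the si-P53RRA library and 436 in the control library, 49.4-fold lower (22.5 to 135). SLC38A3, the liver, kidney and brain member, had 0 and 9 counts and did not reach 1 CPM. The remaining SLC38 genes were within 2-fold. SLC38A7, a lysosomal exporter of glutamine and asparagine, had 369 counts against 748 and was 1.38-fold lower (1.22 to 1.57). SLC38A9, the lysosomal arginine carrier that reports to mTORC1, had 138 counts against 273 and was 1.35-fold lower (1.09 to 1.66), with a log2 change of 0.19 once corrected in that way. SLC38A6, a less studied member that overlaps TRMT5, had 80 counts against 153, and the interval of its ratio included 1 (0.986-fold to 1.73-fold lower). SLC38A10, a large and less studied member, had 1368 counts against 1717 at a ratio of 1.17 (1.09 to 1.26), and its log2 change became -0.19 after that correction. The retinal member SLC38A8 had 2 and 0 counts, and SLC38A11 had 1 in each library.

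The proton-coupled SLC36 carriers sit on lysosomes and on the cell surface. SLC36A1, which exports small neutral amino acids from lysosomes, had 418 counts in the si-P53RRA library and 431 in the control library, 1.43-fold higher (1.24 to 1.64). SLC36A4, a relative linked to mTORC1, had 187 counts against 412 and was 1.498-fold lower (1.26 to 1.79). The GC content of its transcript, 35.0%, is the lowest of the 27 transporters, and its log2 change of -0.57 became 0.27 after the correction. SLC36A3 had 2 and 0 counts.

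**Figure D3:**
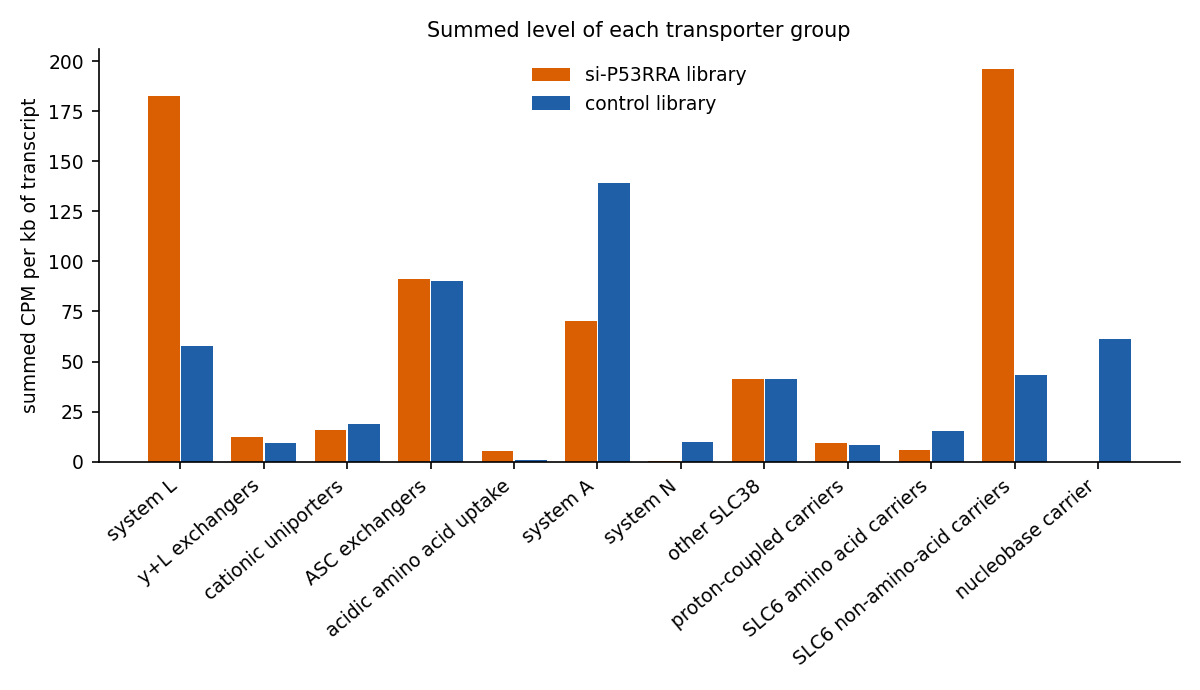
Summed level of each transporter group in CPM per kilobase of the longest transcript, in the si-P53RRA library (left bar) and the control library (right bar), 1 library each, with no error bars since there are no replicates. System L and the SLC6 non-amino-acid carriers stand higher in the si-P53RRA library, system A and the nucleobase carrier stand higher in the control library, and the ASC exchangers are nearly level at 91.1 and 90.4 CPM per kb.

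The SLC6 genes are sodium and chloride driven carriers. SLC6A15, a carrier of branched-chain amino acids and proline known mainly from brain, had 0 counts in the si-P53RRA library and 590 in the control library (35.2 CPM), at least 134-fold lower. SLC6A9, the glycine carrier GlyT1, had 189 counts against 424 and was 1.53-fold lower (1.28 to 1.82); it overlaps CCDC24, which had 107 and 97 counts. SLC6A16, whose cargo is not settled, had 13 counts against 6, a ratio of 3.19 (1.13 to 10.2), but a log2 change of 0.93 with the pseudocount of 0.5 CPM, just inside the 2-fold limit. The broad-range carrier SLC6A14 had 2 counts against 0, the vesicular carrier SLC6A17 0 against 5 and the proline carrier SLC6A20 0 against 3. Of the amino acid carriers of this family, SLC6A9 thus made up 92.6% of the summed level per kilobase in the si-P53RRA library and 52.2% in the control library, where SLC6A15 made up 46.6%.

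SLC6A8, which imports creatine, had 8018 counts in the si-P53RRA library and 2241 in the control library and was 5.26-fold higher (5.02 to 5.52). It has the near-identical pseudogene SLC6A10P, which had 29 counts against 5, so some reads may be split between them. Genes near it on chromosome X were also higher: BCAP31 had 10039 counts against 3360 and DUSP9 567 against 0, while PNCK, between DUSP9 and SLC6A8, had 2 and 0. SLC6A6, which imports taurine, had 689 counts against 864, a ratio of 1.17 (1.06 to 1.30). The dopamine carrier SLC6A3 had 3 counts against 0 and the serotonin carrier SLC6A4 0 against 5.

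SLC43A3, a facilitator of purine nucleobase uptake, had the widest difference of the 39 genes on the log2 scale with the pseudocount. It had 1 count in the si-P53RRA library and 2701 in the control library (161 CPM), 1836-fold lower (329 to 72560). Its neighbours on chromosome 11 went both ways: PRG2, on one side, had 0 counts against 12, RTN4RL2, on the other, had 185 against 43, and the interval of SLC43A1, the gene after RTN4RL2, included 1. Beside SLC7A8 on chromosome 14, C14orf119 had 1358 counts against 1022 and was 1.95-fold higher, and HOMEZ had 366 against 105 and was 5.13-fold higher, both in the direction of SLC7A8 and by less. Near SLC1A1 on chromosome 9, PPAPDC2 had 114 counts against 118 and GLIS3 15 against 684.

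Ranked by level per kilobase, the leading transporters differed between the libraries. In the si-P53RRA library the first was SLC6A8 with 187 CPM per kb, followed by SLC7A5 with 122, SLC1A5 with 88.0, SLC7A8 with 48.0 and SLC38A2 with 41.0. In the control library the first was SLC38A2 with 103 CPM per kb, followed by SLC1A5 with 87.2, SLC43A3 with 61.5, SLC7A5 with 47.5 and SLC38A1 with 35.8. SLC1A5 was thus among the first 3 in both. SLC43A3 ranked 29 in the si-P53RRA library, at 0.0335 CPM per kb, and SLC7A8 ranked 25 in the control library, at 0.283 CPM per kb. System L made up 28.99% of the summed level of all 39 genes in the si-P53RRA library and 11.6% in the control library, system A 11.2% and 28.0%, and the SLC6 carriers of creatine, taurine and monoamines 31.2% and 8.75%. The sum over all 39 genes was 629 and 496 CPM per kb.

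**Figure D4:**
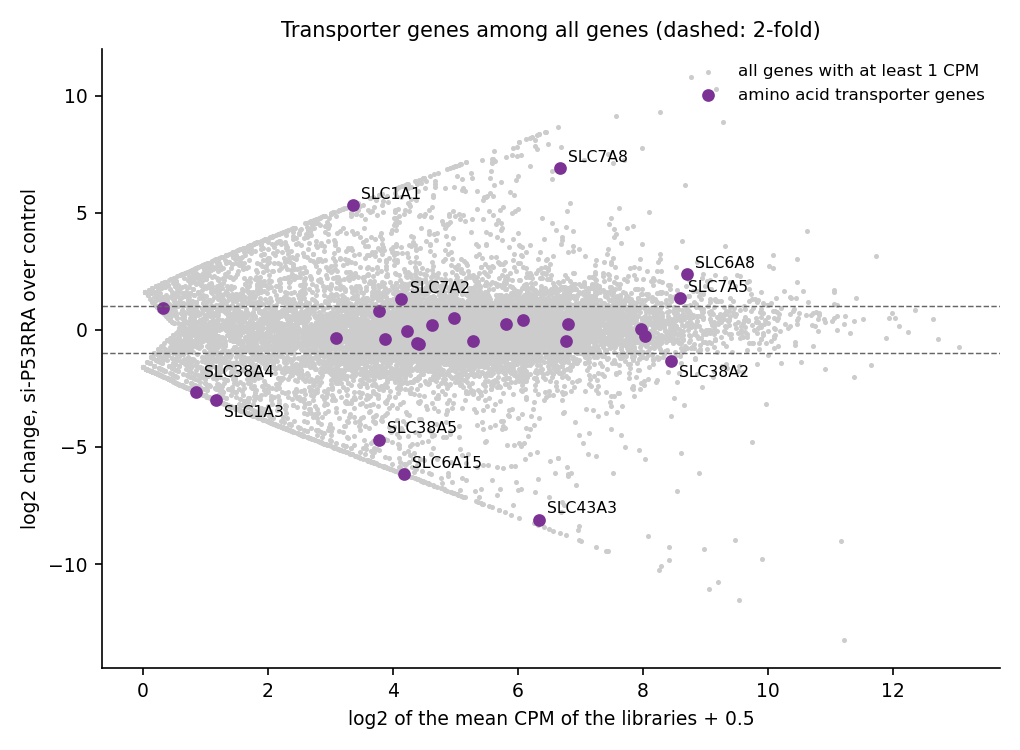
Log2 change between the si-P53RRA and control libraries against the log2 mean level for every gene that reached 1 CPM in at least 1 library (grey) and the 27 transporter genes (purple), with dashed lines at 2-fold and names for the 11 transporters past it. The transporters lie within the spread of the other genes, and SLC1A1, SLC6A15, SLC1A3 and SLC38A4 lie on the edges formed by genes at 0 counts in 1 library.

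Transcript GC content moved with the change over all genes. Across the 12814 genes with a transcript in GENCODE 29, which are not independent replicates and share 2 libraries, Spearman's rho between GC content and log2 change was 0.24, and the median log2 change ran from -0.70 in the tenth of genes with the lowest GC content to 0.50 in the tenth with the highest. Across the 27 transporters rho was 0.35 and Pearson's r 0.18. The abundant genes that were higher, SLC6A8 and SLC7A5, had a GC content of 62.2% and 61.1%, and their log2 changes of 2.39 and 1.36 became 2.08 and 1.13 after the correction. SLC43A3 and SLC7A8 lay in the middle of the range, with 52.5% and 52.9%, and their log2 changes of -8.10 and 6.91 became -8.24 and 6.87. SLC6A15, with the next widest difference, lay near the low end with 38.04%, and its log2 change of -6.16 became -5.65. SLC38A2 was the one transporter of the 11 past 2-fold that came inside the limit with that correction.

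**Figure D5:**
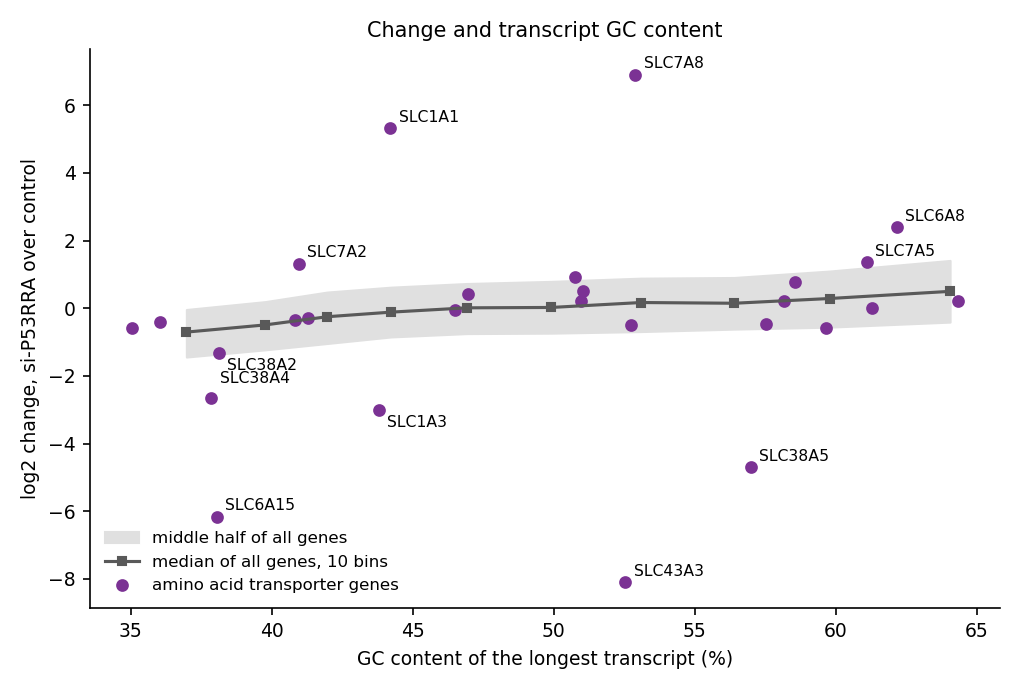
Log2 change between the si-P53RRA and control libraries against the GC content of the longest transcript in percent; purple points are the 27 transporters, the line is the median of all genes in 10 bins of equal size and the band their middle 50%. The line climbs with GC content, SLC38A2 lies near the lower edge of the band, and SLC7A8, SLC1A1, SLC43A3, SLC6A15 and SLC38A5 lie far from it.

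Genes that work beside these transporters were compared as lists. Of 15 other carriers of amino acids and peptides that reached 1 CPM, 3 were higher by 2-fold or more and 3 were lower, and this share of 40% is near the 42.9% of all genes. Their median log2 change was 0.29, the value of SLC3A2. The higher ones were SLC16A10, a carrier of aromatic amino acids with 62 counts in the si-P53RRA library against 18 in the control library, the mitochondrial ornithine carrier SLC25A15 with 526 against 227 and the mitochondrial glutamate carrier SLC25A22 with 1733 against 1217. Of the lower ones, the lysosomal peptide carrier SLC15A3 had 0 counts against 296, PQLC2, which exports cationic amino acids, 159 against 559, and SLC17A5, which exports sialic acid, 132 against 465. Of 27 genes of amino acid sensing by mTORC1, 6 were higher and 8 lower, a share of 51.9% beside 42.9% over all genes, with a median of -0.22. SESN3, of the family of leucine-binding sestrins, was 27.6-fold higher (17.2 to 47.2), and GATSL3, the arginine sensor CASTOR1, 6.25-fold higher (3.81 to 10.7). A relative of each, named after its values were seen, went the other way: SESN2 was 2.59-fold lower (2.18 to 3.08) and GATSL2 3.31-fold lower (2.78 to 3.95). The remaining sestrin on the list, SESN1, had 82 counts against 140, a ratio of 0.861 (0.648 to 1.14), an interval that includes 1. The Rag GTPase gene RRAGD was 7.23-fold lower (3.90 to 14.9) and FNIP1, a partner of folliculin, 6.68-fold lower (5.24 to 8.62).

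Of 19 genes that respond to scarce amino acids, 4 were higher and 1 lower, so that 26.3% were at least 2-fold apart, beside 42.9% of all genes; the median was -0.05. PSPH, the last enzyme of serine synthesis, was 2.55-fold higher (2.31 to 2.81), the translation factor subunit EIF2S1 2.39-fold higher (2.25 to 2.54), the proline synthesis enzyme PYCR1 2.18-fold higher (2.06 to 2.31) and the transcription factor ATF5, named after its values were seen, 2.09-fold higher (1.89 to 2.31). The transcription factor CEBPB was 2.20-fold lower (2.02 to 2.39). ATF4, the central factor of this response, also named after its values were seen, had 2633 counts in the si-P53RRA library and 6455 in the control library and was 1.67-fold lower (1.59 to 1.74). Of 13 genes of glutamine and branched-chain amino acid use, 5 were higher (38.5%, beside 19.7% of all genes) and 1 lower (7.69%, beside 23.2%); the median was 0.46. Glutamine synthetase, GLUL, was 3.52-fold higher (3.30 to 3.75), and the transaminases GPT2 and GOT2 3.26-fold (2.99 to 3.55) and 3.21-fold (3.08 to 3.35) higher. The arginase ARG2 and the mitochondrial transaminase BCAT2, picked once the values were known, stood at 1.35 and 1.06 in log2 change. BCAT1, the cytosolic transaminase of branched-chain amino acids, was 3.35-fold lower (2.87 to 3.92).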

How the data were processed

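The authors deposited whole-number counts per gene symbol for 1 si-P53RRA and 1 control library of poly(A)-selected RNA, whose values show no sign of normalization; per the submitters' processing notes the reads were mapped to hg19. No source used here gives the aligner, the counter or the annotation. Library sizes were adjusted by TMM normalization (edgeR 4.0.16, R 4.3.3); the factor was 0.955 in the si-P53RRA library and 1.05 in the control library. Ratios carry exact conditional binomial 95% intervals (scipy 1.17.1), which cover counting error only: without molecular identifiers, reads are not independent molecules. The bound of 3 counts is 0.263 CPM in the si-P53RRA library and 0.179 CPM in the control library. Transcript lengths and GC content came from the longest transcript of each gene in GENCODE 29, which the cells need not use. Gene order and promoters came from RefSeq. Every transporter with at least 1 CPM in either library was named. So was every gene past 2-fold among the other carriers, the genes of scarce amino acids and those of glutamine and branched-chain use. Of the genes of amino acid sensing past 2-fold only some were named, and these were not always those with the largest change. The members and lists were chosen with earlier results of these data known. The procedure was tested on simulated data. Far fewer genes were changed there than the 42.9% at least 2-fold apart here, so scaling at such a spread was not tested. Some genes are not reported here.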

Additional observations from a re-analysis of the deposited data

How the results depend on the processing

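Counts of transporters past 2-fold stayed within 1.5 times their values of 5 higher and 6 lower under the other scalings (total counts, upper quartile, and median ratios from DESeq2 1.42.0), filters, pseudocounts, the correction for GC content and length and a requirement that the counting interval exclude 1, but 3 were higher at a limit of 3-fold and 3 were lower when genes at 0 counts in 1 library were left out, an alternative added after the data were seen. The median of -0.06 became -0.19 with total counts, which shift the median of all genes from -0.06 to -0.18, -0.21 with no filter on low values, -0.17 with amino acid carriers alone, 0.067 after the correction and 0.014 without genes at 0 counts; its sign is therefore not read. The sign of 7 transporters within 2-fold turned in at least 1 setting. SLC6A16 passed 2-fold with a pseudocount of 0.1 CPM, at a log2 change of 1.44. No paired analysis was possible because each group had 1 library. No library can be left out for the same reason. At this depth 12 transporters, with at most 3 counts in the si-P53RRA library and 9 in the control library, were not measurable.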
